A study of Mus musculus with 58 samples.

Results

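The major histocompatibility complex (MHC) class II genes described here were Cd74, H2-Aa, H2-Ab1, H2-Eb1, H2-DMa, H2-DMb1 and H2-Oa, together with Ciita, the gene of their main transcriptional coactivator. These 8 genes, of 55376 in the deposited RNA-seq tables, were chosen by symbol with results of these data already known, and it is not recorded which comparison chose them. Their RNA levels and fold changes are therefore given as a description, and counts of members past the thresholds stand beside the share of all genes past the same thresholds. Whether PU.1 peaks, histone marks or chromatin accessibility near the genes played a part in the choice is not recorded either. Values of these assays are likewise given as a description.

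MHC class II molecules present peptides from the endosomal pathway to CD4 T cells, and are best known from dendritic cells, macrophages and B cells. H2-Aa and H2-Ab1 encode the alpha and beta chains of I-A, and H2-Eb1 the beta chain of I-E. The mouse strain used here lacks a working I-E alpha gene. Values of H2-Eb1 are therefore RNA levels only and no measure of I-E. Cd74 encodes the invariant chain, which holds the peptide groove closed during transport to the endosome. H2-DMa and H2-DMb1 encode H2-DM, which exchanges the last piece of the invariant chain for peptide, and H2-Oa encodes a chain of H2-O, an inhibitor of H2-DM. Ciita binds no DNA itself and acts through the RFX, NF-Y and CREB factors on the X and Y boxes of class II promoters. It is transcribed from several promoters, one of which responds to interferon gamma, and PU.1, encoded by Spi1, is a transcription factor of myeloid and B cells.

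RNA-seq was performed on hematopoietic stem cells (HSCs) of male C57BL/6 mice, sorted as lineage-negative, Sca-1+, c-Kit+, CD34-, Flk2-, CD150+ bone marrow cells. Old mice of 24 to 26 months had eaten ad libitum (OAL, 4 libraries), had been kept on lifelong 40% caloric restriction (CR) begun at 3 to 4 months (OCR, 4 libraries), or had been returned to free feeding for 4 weeks after lifelong CR (OCRRF, 2 libraries). Young mice of 3 to 4 months had eaten ad libitum (YAL, 4 libraries), had been restricted by 20% for the first week and by 40% for 3 further weeks (YCR, 4 libraries), or had been refed for 4 weeks after that (YCRRF, 4 libraries). In the knockdown experiments, aged HSCs received a lentiviral short hairpin RNA (shRNA) against Kdr marked with GFP (Kdr knockdown, 4 libraries), or the Kdr shRNA together with 1 of 2 shRNAs against Bmpr1a marked with mCherry (double knockdown, 2 libraries for each shRNA, analysed as 1 group of 4). Each experiment had its own scramble shRNA control (2 libraries each). All of these cells were transplanted into lethally irradiated young female CD45.1 recipients and re-sorted as donor CD45.2+, lineage-negative, Sca-1+, c-Kit+, CD48-, CD150+ cells with the fluorescent markers, so the knockdown libraries differ from the diet libraries in host, markers, kit and sequencing. Accessibility (ATAC-seq) was measured in 4 OCR and 2 OCRRF libraries, H3K4me3 and H3K27me3 in 2 OCR libraries each, and PU.1 binding in 2 libraries each of OAL, OCR and OCRRF. ATAC and histone libraries of OAL were not analysed here.

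The libraries carried the marker genes of the sorted population. The summed level of 8 HSC markers was 3506 to 4991 counts scaled to a common library total (CPM) in the diet libraries, against 37.7 to 124 CPM for 7 B cell markers, most of it Cd79b. The defining B cell gene Pax5 had group means from 0 to 3.08 CPM, and the dendritic cell gene Itgax reached at most 1.43. Whole lists reached more. In the diet libraries dendritic cell markers summed to 21.6 to 87.5 CPM and plasmacytoid dendritic cell markers to 177 to 307. Plasma cell markers summed to 138 to 1538 CPM and neutrophil markers to 1.77 to 1059. In the knockdown libraries neutrophil markers summed to 165 to 2212 CPM, beside 2580 to 3500 for HSC markers. The share of other cells was not tested. Old libraries detected 42071 to 46646 genes and young libraries 22209 to 33496, so age cannot be told apart from the way the libraries were made. In sorted bulk populations, fewer cells that express a gene and less RNA per cell cannot be told apart. The labels do not say that replicates came from separate animals. The paper describes its replicates as biological, without saying whether a library came from a single animal or from a pool. A p-value therefore measures only the spread between these libraries, part of which may be technical.

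In mm10, 6 of the genes lie together on chromosome 17, H2-Oa at chr17:34092340-34095234, H2-DMa at chr17:34119541-34139101, H2-DMb1 at chr17:34153072-34160230, H2-Ab1 at chr17:34257689-34269419, H2-Aa at chr17:34282744-34287823 on the minus strand and H2-Eb1 at chr17:34305867-34316674. Ciita lies at chr16:10480059-10528418. All 8 genes had reads in all 34 RNA-seq libraries, from 147 to 746 counts for Ciita to 5349 to 21017 for Cd74. On a scale per length (RPKM, the CPM divided by the exon length in kilobases), Cd74 was the most abundant with a median of 237 over the 22 diet libraries (120 to 365). The I-A and I-E chains followed with medians of 67.9 for H2-Ab1, 45.9 for H2-Aa and 39.5 for H2-Eb1. H2-DMb1 with 43.6 and H2-DMa with 40.6 RPKM lay at the level of the I-A and I-E chains, while H2-Oa had a median of 11.6 and Ciita one of 1.60. The neighbours H2-Aa, H2-DMb1, H2-DMa and H2-Eb1 in this order overlapped across libraries, with H2-Aa spanning 26.7 to 68.2 and H2-DMa 33.8 to 50.5 RPKM. Within groups of 4 libraries the median coefficient of variation was 9.63% for H2-DMb1, 10.2% for H2-DMa and 10.8% for Cd74, and 21.8% to 23.4% for H2-Oa, Ciita and H2-Eb1.

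The promoter letters on which RFX and NF-Y are known to act are shown for the genes with a promoter entry in RefSeq (GRCm38.p6), each 5′ to 3′ on the strand of the gene. Capitals mark the X box letters, AGNAAC followed directly by NGATG, and the Y box letters TGATTGG, which were chosen after the sequences had been read and were searched on both strands. H2-Eb1 (chr17:34305747-34305866, plus strand) held both, 92 and 61 bases before the start. H2-DMb1 (chr17:34153087-34153116, plus strand) is shown around its X box letters 95 bases before the start, and its Y box letters stood 63 bases before it, outside the piece shown. H2-Aa (chr17:34287824-34287943, minus strand) and H2-Oa (chr17:34092259-34092340, plus strand) held the Y box letters, 50 and 45 bases before the start. H2-DMa (chr17:34122712-34122821, plus strand) held neither set of letters within 250 bases. These distances are from RefSeq starts, and GENCODE places some starts elsewhere. There H2-DMb1 begins at 34153072 and H2-DMa at 34119541, so their pieces lie inside the GENCODE genes. H2-Oa begins at 34092340, the last base of its piece.
H2-Eb1: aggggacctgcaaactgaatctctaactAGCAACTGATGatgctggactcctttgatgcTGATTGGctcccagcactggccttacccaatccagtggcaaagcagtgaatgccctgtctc
H2-DMb1: ggtttacctAGTAACTGATGatgctaggct
H2-Aa: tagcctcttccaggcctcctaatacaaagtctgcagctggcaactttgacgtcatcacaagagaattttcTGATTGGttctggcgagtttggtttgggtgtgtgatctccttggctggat
H2-Oa: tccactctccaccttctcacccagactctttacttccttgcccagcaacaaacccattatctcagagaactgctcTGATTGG
H2-DMa: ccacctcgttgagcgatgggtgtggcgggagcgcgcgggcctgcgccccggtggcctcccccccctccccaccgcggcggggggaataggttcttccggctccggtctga
The Y box letters were in 4 of the 5 members with an entry and in 7.23% of 32851 promoters, and the X box letters in 2 and in 0.259%. Because the letters were chosen with these sequences in view, a higher share among the members was fixed beforehand. The shares are thus no test of enrichment. A match is a description of these letters and not of a bound site. The members without an entry were Cd74, H2-Ab1 and Ciita.

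Short-term CR in young mice went with lower RNA levels of the I-A and I-E chains and of Cd74. Cd74 stood at 564, 570, 489 and 455 CPM in the YAL libraries and at 341, 340, 394 and 408 CPM in the YCR libraries. No YCR library reached the lowest YAL library, and the log2 fold change was −0.46 (SE 0.095), or 1.38-fold lower. H2-Eb1 measured 127, 95.3, 81.2 and 78.2 CPM in YAL and 53.9, 62.5, 48.2 and 47.9 CPM in YCR. Its log2 fold change was −0.82 (SE 0.168), 1.77-fold lower, again with no overlap. H2-Aa, the I-A alpha chain, was at 235, 180, 166 and 179.9 CPM in YAL and at 147, 152, 142 and 154 CPM in YCR, a log2 fold change of −0.33 (SE 0.113) without overlap. H2-Ab1, its partner chain, measured 211, 234, 207 and 169 CPM in YAL and 161, 156, 146 and 172 CPM in YCR, and here the groups overlapped (−0.35, SE 0.105).

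The other 4 genes moved less together in the young mice. Ciita measured 21.9, 14.9, 20.0 and 15.0 CPM in YAL and 14.9, 17.4, 7.52 and 11.3 CPM in YCR, with overlapping groups and a log2 fold change of −0.47 (SE 0.279). H2-DMb1 was at 93.8, 80.1, 73.2 and 82.2 CPM in YAL and at 61.7, 69.1, 62.7 and 70.8 CPM in YCR, without overlap (−0.29, SE 0.121). H2-DMa, the other chain of H2-DM, was at 143.8 ± 11.3 CPM (SD, n = 4) in YAL and 141.9 ± 4.11 (SD, n = 4) in YCR. H2-Oa was at 15.4 ± 4.29 (SD, n = 4) and 16.5 ± 3.48 (SD, n = 4) CPM. Of the 8 genes, 6 had a negative log2 fold change, with a median of −0.34 against 0.0083 over all 18680 genes tested.

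None of the 8 met the thresholds for a differentially expressed gene (DEG; edgeR, Benjamini-Hochberg adjusted p below 0.05 and fold change above 1.2) in YCR versus YAL, where 0.257% of genes did and 1735 genes had an unadjusted p below 0.05. By DESeq2, 2 of the 8, Cd74 and H2-Eb1, met them, against 1.17% of 43742 genes. The 4 genes that were lower without overlap stand beside 3.83% of all genes. B cell markers summed to 63.1 to 122 CPM in YAL and 50.7 to 124 in YCR, and dendritic cell markers to 37.8 to 53.1 and 58.1 to 87.5. Of the tested markers, 5 of 7 for B cells and all 4 for dendritic cells had a positive log2 fold change, none a DEG. Plasma cell markers had 5 of 5 positive (median 2.1) and summed to 259.9 to 301 CPM in YAL and 227 to 1538 in YCR, and neutrophil markers had 4 of 4 negative (median −1.24), again with no DEG. The part of these cells in the result was not tested.

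**Figure D1:**
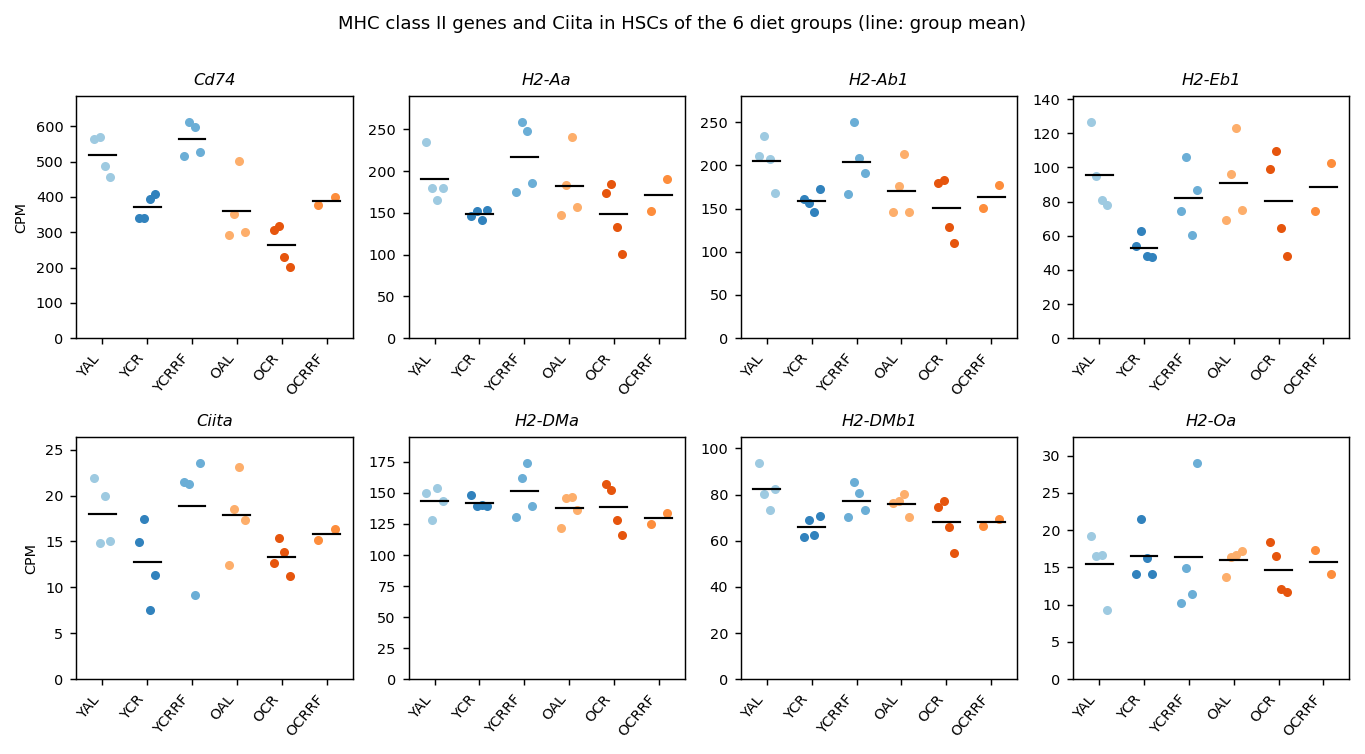
CPM of each gene (y axis, linear, from 0) in every library of the 6 diet groups (x axis), with 1 point per library and a line at the group mean. The 4 YCR libraries of Cd74 lie between 340 and 408 CPM, under the lowest YAL library at 455.

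In old mice, lifelong CR left the groups overlapping for all 8 genes, while 11.4% of all genes had no overlap. Cd74 measured 292, 351, 501 and 300.2 CPM in OAL and 306, 317, 231 and 202 CPM in OCR. The means were 361 ± 96.8 (SD, n = 4) and 264 ± 56.4 (SD, n = 4), with a log2 fold change of −0.43 (SE 0.135). The third OAL library was the highest of these 8 libraries and the last 2 OCR libraries were the lowest. Ciita was at 12.5, 18.6, 23.1 and 17.4 CPM in OAL and 12.7, 15.4, 13.8 and 11.2 CPM in OCR, a log2 fold change of −0.41 (SE 0.148). H2-Aa had a log2 fold change of −0.28 (SE 0.140), with 148, 184, 241 and 157 CPM in OAL and 174, 185, 133 and 101 CPM in OCR. In the I-A and I-E chains and Cd74, the first 2 OCR libraries lay within the OAL range and the last 2 below it.

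H2-Eb1 spread widely in both old groups, from 69.1 to 123 CPM in OAL and from 48.4 to 109 CPM in OCR, and its log2 fold change was −0.16 (SE 0.173). H2-Ab1 had the same log2 fold change of −0.16 (SE 0.128). The peptide exchange genes H2-DMa (0.03, SE 0.093) and H2-DMb1 (−0.14, SE 0.095) and their inhibitor H2-Oa (−0.11, SE 0.141) differed by less. None of the 8 was a DEG in OCR versus OAL by edgeR or by DESeq2, while 5.57% of 27150 genes were DEGs by edgeR, 4387 had an unadjusted p below 0.05, and 3.45% of genes were DEGs by DESeq2. Cd74 passed the thresholds without the first (−0.51) or second (−0.54) OCR library or the first OAL library (−0.52), and Ciita also passed without that OAL library (−0.55). B cell markers summed to 38.8 to 45.0 CPM in OAL and 37.7 to 46.0 in OCR, and HSC markers to 4035 to 4606 and 3506 to 4168, with 4 of 8 HSC markers lower as DEGs. Of the plasma cell markers 2 of 5 and of the erythroid markers 2 of 4 were DEGs lower in OCR. Their part in the values of the 8 genes was not tested. The response of old mice to CR minus that of young mice was 0.04 on the log2 scale for Cd74 (SE 0.218) and 0.67 for H2-Eb1 (SE 0.311). For the other 6 genes it lay between −0.21 and 0.19, and of these H2-DMb1 alone (0.16, SE 0.148) exceeded its SE.

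Refeeding was followed by higher Cd74 at both ages. In young mice, Cd74 was at 515, 613, 599 and 528 CPM after refeeding, above all YCR libraries, a log2 fold change of 0.58 (SE 0.113) or 1.5-fold. H2-Aa measured 174, 259, 248 and 186 CPM in YCRRF and was likewise above all YCR libraries (0.53, SE 0.147, 1.44-fold). For H2-Eb1 (0.61, SE 0.190), H2-Ab1 (0.35, SE 0.140) and Ciita (0.54, SE 0.361) the refed and restricted groups overlapped. In Ciita, the third YCRRF library was at 9.19 CPM and the other 3 at 21.3 to 23.6 CPM. The median log2 fold change of the 8 was 0.44, with 0 DEGs among them by edgeR and 1, Cd74, by DESeq2 (0.797% of genes). The background in YCRRF versus YCR was 0.0102% of 19535 genes, 1420 had an unadjusted p below 0.05, and 2.99% of genes were higher without overlap. B cell markers had 6 of 6 log2 fold changes negative in this contrast (median −2.14), plasma cell markers 5 of 5 negative (−5.09), dendritic cell markers 4 of 4 negative (−0.72) and neutrophil markers 4 of 4 positive (2.12), with no DEG. B cell markers summed to 50.7 to 124 CPM in YCR and 44.4 to 63.7 in YCRRF, and neutrophil markers to 2.56 to 245 and 136 to 1059 CPM. Their part in the higher levels was not tested.

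YCRRF and YAL overlapped in all 8 genes, while 3.22% of all genes had no overlap. The log2 fold changes ran from −0.21 for H2-Eb1 to 0.20 for H2-Aa, with 0.13 (SE 0.111) for Cd74. No gene at all was a DEG in YCRRF versus YAL by edgeR (0%), 714 genes had an unadjusted p below 0.05, and DESeq2 called 52 (0.119%), none of them a member. YCR was compared with both groups, so its own libraries enter each of these contrasts.

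In old mice, Cd74 was at 377 and 400.0 CPM in the 2 OCRRF libraries, above the highest OCR library at 317. Its log2 fold change against OCR was 0.49 (SE 0.137), 1.41-fold, and Cd74 was the 1 member among the 3.41% of 32577 genes that were DEGs. That call was lost with DESeq2 (0 members, 4.51% of genes), with its size factors, with the replicate block and in 1 fit of all groups. It was also lost without either OCRRF library (log2 fold change 0.50 without the first and 0.51 without the second) and without the third (0.43) or the last (0.37) OCR library. In this contrast 17.5% of all genes were higher in OCRRF without overlap, and the median log2 fold change over all genes was 0.11. B cell markers moved the same way, with 6 of 7 positive (median 1.1), 2 of them DEGs, and sums of 37.7 to 46.0 CPM in OCR and 48.2 to 50.9 in OCRRF. Plasma cell markers had 4 of 5 positive (median 1.29), with no DEG, and erythroid markers 4 of 4 positive (1.33), 2 of them DEGs. Their part in the Cd74 value was not tested. The other 7 genes had smaller log2 fold changes, from −0.16 for H2-DMa to 0.19 for Ciita (SE 0.169), all with overlap.

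Against OAL, Cd74 in OCRRF had a log2 fold change of 0.09 (SE 0.142) and lay within the OAL range. H2-DMb1 was at 66.3 and 69.5 CPM in OCRRF and at 76.5, 77.2, 80.1 and 70.4 CPM in OAL, lower without overlap (−0.18, SE 0.080). None of the 8 was a DEG against OAL by edgeR, and DESeq2 called 1, H2-DMb1, where it called 8.67% of 51950 genes. B cell markers had 6 of 7 positive in this contrast (median 1.08), 2 of them DEGs, and neutrophil markers 4 of 4 positive (1.01), 1 of them a DEG. The background was 4.14% of 31816 genes for DEGs, 15.8% for genes lower without overlap, and 8564 genes with an unadjusted p below 0.05.

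Between old and young ad libitum mice, Cd74 was the gene that differed most among the 8. It had a log2 fold change of −0.51 (SE 0.158), 1.42-fold lower in OAL, and the third OAL library at 501 CPM lay within the YAL range. DESeq2 put it past the thresholds with 15.5% of genes, as did edgeR without the third (−0.55) or last (−0.58) YAL library or the third OAL library (−0.72). H2-Ab1 had a log2 fold change of −0.25 (SE 0.133), and the other 6 genes lay within 0.10 of 0. By edgeR 0 of the 8 were DEGs, against 14.8% of 23525 genes and 7239 with an unadjusted p below 0.05. B cell markers were also lower in OAL, with 4 of 7 DEGs (median −1.30) and sums of 38.8 to 45.0 CPM in OAL and 63.1 to 122 in YAL, and neutrophil markers had 4 of 4 negative (−3.53), 1 of them a DEG. Of the dendritic cell markers 2 of 6 were DEGs higher and 1 lower. Their part in the Cd74 value was not tested.

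The order of mean levels among the 6 diet groups differed from gene to gene. Cd74 ran from YCRRF (564 ± 49.1 CPM, SD, n = 4) over YAL (519 ± 56.4, n = 4), OCRRF (388 ± 16.3, n = 2), YCR (371 ± 35.4, n = 4) and OAL (361 ± 96.8, n = 4) to OCR (264 ± 56.4, n = 4). YCRRF and YAL did not differ beyond their spread, nor did OCRRF, YCR and OAL, nor OAL and OCR, while every YAL library lay above both OCRRF libraries. Ciita ran from YCRRF (18.9 ± 6.54 CPM, SD, n = 4), YAL (17.96 ± 3.55, n = 4), OAL (17.9 ± 4.36, n = 4) and OCRRF (15.8 ± 0.903, n = 2) to OCR (13.3 ± 1.77, n = 4) and YCR (12.8 ± 4.31, n = 4), and no pair of neighbours differed beyond its spread. The group means ranged least, relative to their size, in H2-Oa (14.7 to 16.5 CPM) and H2-DMa (129.7 to 151.7 CPM).

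**Figure D2:**
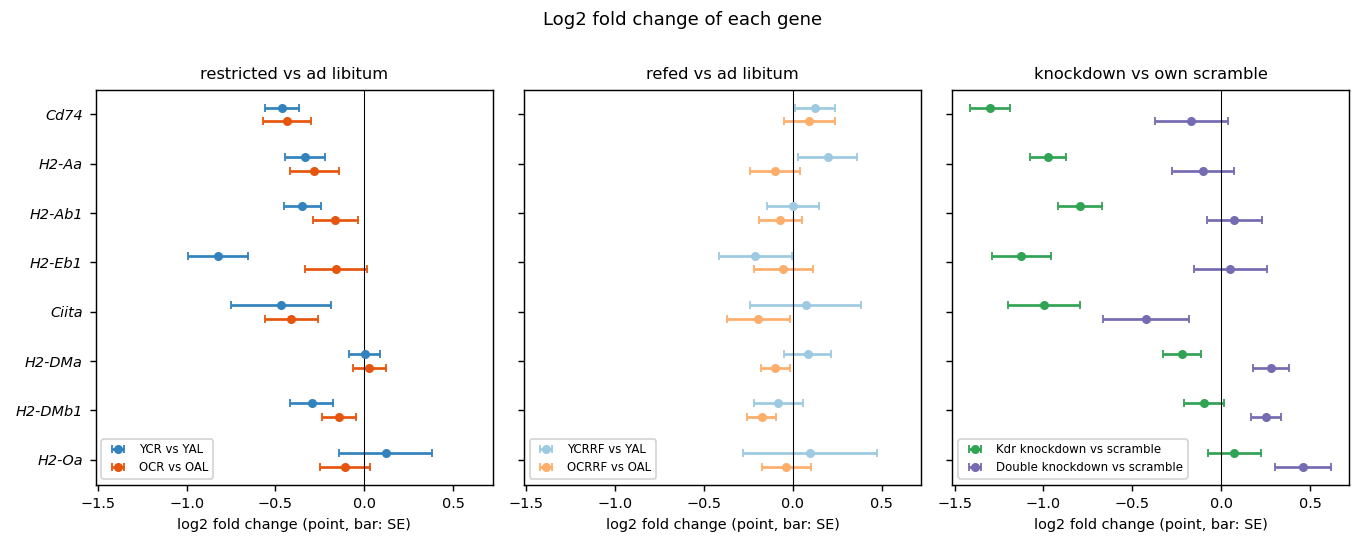
Log2 fold change of each gene (x axis) with its SE as a bar, for restricted against ad libitum groups, refed against ad libitum groups and knockdown against the scramble libraries of the same experiment. Cd74 lies at −0.46 in YCR, at −0.43 in OCR, at −1.30 in the Kdr knockdown and at −0.17 in the double knockdown.

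The knockdown libraries were first checked for their targets. Kdr, which encodes the VEGF receptor 2, stood at 6.04 and 6.07 CPM in the scramble libraries of the Kdr experiment and at 1.93, 2.22, 3.28 and 2.03 CPM in the Kdr knockdown, 2.56-fold lower without overlap (edgeR adjusted p = 0.247). In the double experiment Kdr was at 3.98 and 4.63 CPM in scramble and at 1.24, 0.556, 1.60 and 1.35 CPM in the knockdown, 3.62-fold lower (edgeR adjusted p = 0.272). Bmpr1a, a BMP receptor gene, was at 5.21 and 4.43 CPM in scramble and at 4.44, 0.657, 2.22 and 0.595 CPM in the knockdown (2.44-fold lower, edgeR adjusted p = 0.602), and the first library of Bmpr1a shRNA1 lay within the scramble range.

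The Kdr knockdown had lower RNA levels of Cd74, of the I-A and I-E chains and of Ciita than its scramble libraries. Cd74 measured 557 and 455 CPM in scramble and 235, 202, 204 and 181 CPM in the knockdown, a log2 fold change of −1.30 (SE 0.111), 2.46-fold lower. H2-Eb1 was at 132 and 95.5 CPM in scramble and at 64.9, 45.3, 46.2 and 52.5 CPM in the knockdown (−1.12, SE 0.165, 2.18-fold lower). H2-Aa measured 197 and 155 CPM against 95.2, 91.5, 87.6 and 83.9 CPM (−0.98, SE 0.101, 1.97-fold lower). In each of these genes every knockdown library lay below both scramble libraries.

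H2-Ab1 was at 276 and 209 CPM in scramble and at 147, 156, 128.3 and 128.4 CPM in the knockdown, 1.73-fold lower (−0.79, SE 0.123). Ciita, the coactivator, was at 14.2 and 11.8 CPM and at 6.72, 4.79, 7.00 and 7.47 CPM (−1.0, SE 0.203, 2.0-fold lower). These too did not overlap. H2-DMa measured 193 and 181 CPM in scramble and 167, 182, 137 and 156 CPM in the knockdown, and its log2 fold change of −0.22 (SE 0.108) came with overlapping groups, as did −0.10 (SE 0.112) for H2-DMb1 and 0.07 (SE 0.147) for H2-Oa. The genes of peptide exchange and of its inhibitor thus stood apart in size from the I-A and I-E chains, Cd74 and Ciita. This difference was not tested.

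Cd74 and H2-Aa were 2 of the 3 DEGs of the Kdr knockdown, the third being Il1rapl2 with a log2 fold change of −2.0. DESeq2 called 5 members, Cd74, H2-Aa, H2-Ab1, H2-Eb1 and Ciita, where it called 0.836% of genes. The background was 0.0149% of 20098 genes for DEGs, 11.3% for genes lower without overlap, and 1789 genes with an unadjusted p below 0.05. Ordered by p over all 20098 genes, Cd74 stood at rank 2, H2-Aa at 3, H2-Eb1 at 9, H2-Ab1 at 13 and Ciita at 70. These ranks are a description, since the genes were chosen with results of these data known. The median log2 fold change of the 8 was −0.89 against −0.0023 over all genes. With 1 library left out, the number of members called ran from 2 to 0. Cd74 alone was called without the first knockdown library, and no member was called without the third or last knockdown library or without either scramble library, where the log2 fold change of Cd74 was −1.14 without the first and −1.44 without the second scramble library. HSC markers summed to 3299 to 3500 CPM in scramble and 2712 to 3112 in the knockdown, with 8 of 8 log2 fold changes negative (median −0.32) and no DEG. The 4 neutrophil markers summed to 165 to 872 and 386 to 1869 CPM, with 4 of 4 positive (median 2.13) and no DEG. Those of monocytes and macrophages summed to 16.4 to 26.2 and 24.9 to 69.4 CPM, with 6 of 6 positive, and those of B cells to 29.2 to 36.3 and 36.9 to 54.1 CPM, with 5 of 5 positive (median 1.42). Plasma cell markers also had 5 of 5 positive (0.73), with no DEG. The part of these cells in the result was not tested.

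**Figure D3:**
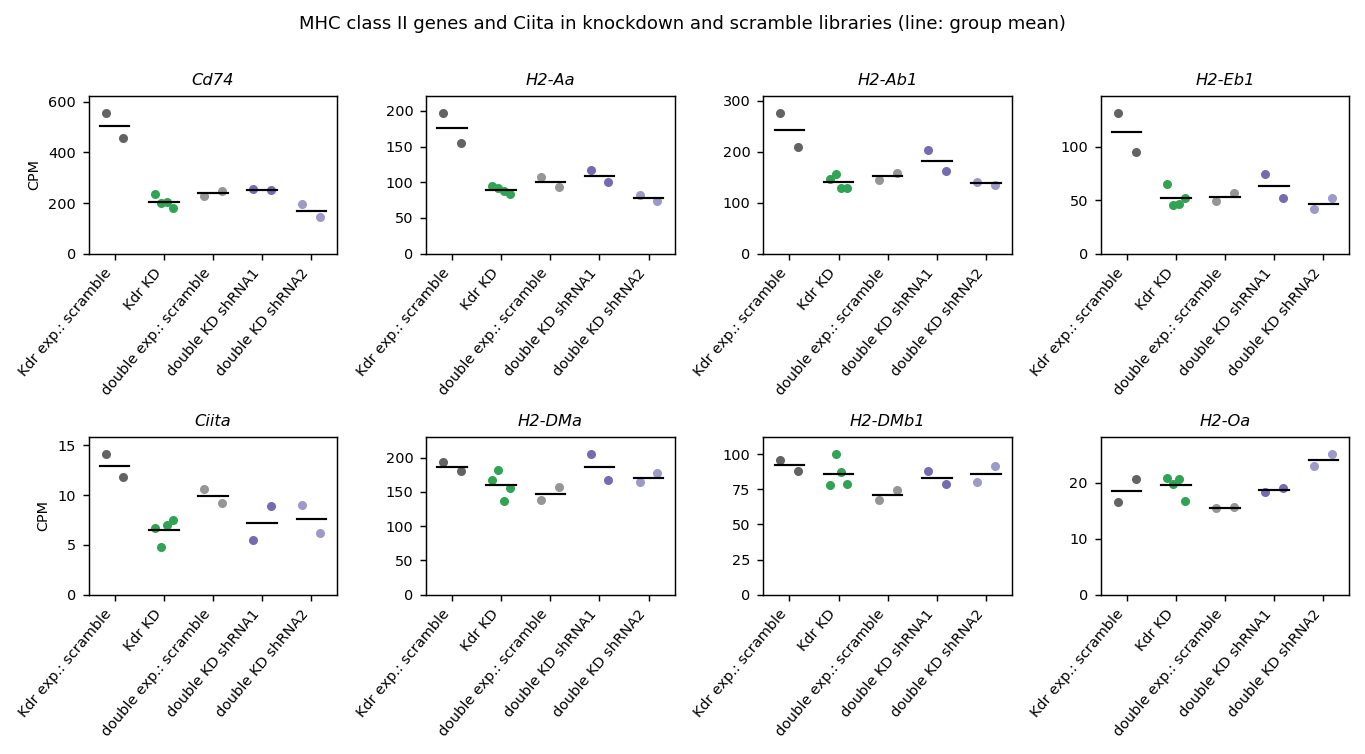
CPM of each gene (y axis, linear, from 0) in every knockdown and scramble library (x axis), with 1 point per library and a line at the group mean. Cd74 lies at 455 and 557 CPM in the scramble libraries of the Kdr experiment, at 181 to 235 CPM in the Kdr knockdown and at 229 and 246 CPM in the scramble libraries of the double experiment.

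In the double knockdown the I-A and I-E chains and Cd74 overlapped with their scramble libraries. Cd74 measured 229 and 246 CPM in scramble, 255 and 249.6 CPM with Bmpr1a shRNA1 and 196 and 145 CPM with shRNA2, a log2 fold change over both shRNAs of −0.17 (SE 0.205). H2-Aa (−0.10, SE 0.175), H2-Ab1 (0.07, SE 0.155) and H2-Eb1 (0.05, SE 0.204) also had log2 fold changes smaller than their SE. In H2-Aa, the shRNA1 libraries were at 117 and 100.5 CPM, the shRNA2 libraries at 81.7 and 73.2 CPM, and scramble at 107 and 93.3 CPM, so both shRNA2 libraries lay below scramble and the shRNA1 libraries within or above it. In Cd74 both shRNA1 libraries lay above scramble and both shRNA2 libraries below it.

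Ciita measured 10.7 and 9.25 CPM in scramble of the double experiment and 5.48, 8.86, 9.06 and 6.22 CPM in the double knockdown, lower without overlap (−0.42, SE 0.244). The H2-DM and H2-O genes were higher without overlap. H2-Oa was at 15.5 and 15.6 CPM in scramble and at 18.3, 18.9, 22.9 and 25.1 CPM in the knockdown (0.46, SE 0.159). H2-DMa was at 138 and 157 CPM in scramble and at 206, 168, 165 and 177 CPM in the knockdown (0.28, SE 0.101). H2-DMb1 was at 67.7 and 74.5 CPM against 88.1, 78.7, 80.1 and 91.5 CPM (0.25, SE 0.084). By edgeR 0 of the 8 were DEGs, by DESeq2 likewise 0 (1.08% of genes), against 0.00498% of 20072 genes by edgeR, 1977 with an unadjusted p below 0.05, 10.8% lower and 10.5% higher without overlap. The 1 DEG of this experiment was Tmem164 (log2 fold change −0.69). Monocyte and macrophage markers had 6 of 6 negative (median −0.78), with sums of 61.0 to 61.2 CPM in scramble and 19.5 to 36.1 in the double knockdown. Neutrophil markers had 4 of 4 negative (−1.5), with sums of 1294 to 2212 and 233 to 1507 CPM, and B cell markers 4 of 5 positive (0.62). None was a DEG, and their part in the values of the 8 genes was not tested.

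The difference between the 2 knockdown effects, double minus Kdr, was 1.13 on the log2 scale for Cd74 (SE 0.261), 1.17 for H2-Eb1 (SE 0.297), 0.87 for H2-Aa (SE 0.223) and 0.87 for H2-Ab1 (SE 0.220). It was 0.57 for Ciita (SE 0.335) and 0.35 to 0.50 for H2-DMa, H2-DMb1 and H2-Oa. The edgeR test of this difference called 0 of 21250 genes, with 760 at an unadjusted p below 0.05 and 3 genes by DESeq2.

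The 2 pairs of scramble libraries differed in all 8 genes. In each, both libraries of the Kdr experiment lay above both libraries of the double experiment. The share of all genes that separate the 2 pairs in this way was not computed. Cd74 was at 557 and 455 CPM in scramble of the Kdr experiment and at 229 and 246 CPM in scramble of the double experiment. H2-Aa stood at 176 ± 29.7 (SD, n = 2) and 100.2 ± 9.86 (SD, n = 2) CPM in the 2 pairs, and H2-Eb1 at 113.8 ± 25.9 (SD, n = 2) and 53.3 ± 5.39 (SD, n = 2) CPM. Genes that overlapped in the Kdr knockdown differed too. The means of the 2 pairs were 187 and 147 CPM for H2-DMa, 92.1 and 71.1 for H2-DMb1, and 18.5 and 15.5 for H2-Oa. The Kdr knockdown libraries, with Cd74 at 205 ± 22.2 CPM (SD, n = 4), lay near the scramble level of the double experiment. In a comparison chosen after the data were seen, the Kdr knockdown against the scramble libraries of the double experiment gave log2 fold changes of −0.21 for Cd74 (SE 0.0998), −0.16 for H2-Aa, −0.12 for H2-Ab1, −0.03 for H2-Eb1 and −0.61 for Ciita (SE 0.207). No gene was a DEG there by edgeR, and 1690 had an unadjusted p below 0.05. Against all 4 scramble libraries, a comparison likewise chosen after the data were seen, the values were −0.86 for Cd74 (SE 0.247), −0.63 for H2-Aa, −0.50 for H2-Ab1, −0.68 for H2-Eb1 and −0.82 for Ciita (SE 0.178), with 14 DEGs by edgeR, 0 of them members. The choice of scramble libraries thus moved the fold change of Cd74 by more than any other setting tried for this contrast. Monocyte markers summed to 16.4 to 26.2 CPM in scramble of the Kdr experiment and 61.0 to 61.2 CPM in that of the double experiment, and neutrophil markers to 165 to 872 and 1294 to 2212 CPM. Their part in the difference was not tested.

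RNA levels of the I-A chains and Cd74 moved together from library to library, and those of H2-Eb1 and H2-DMb1 did so in part. Over the 22 diet libraries, Pearson's r of log2 CPM was 0.88 between H2-Aa and H2-Ab1, 0.86 between Cd74 and H2-Ab1, and 0.80 between Cd74 and H2-Aa. Over the 12 knockdown libraries these were 0.94, 0.91 and 0.97. Cd74 and H2-Eb1 had an r of 0.41 in the diet and 0.89 in the knockdown libraries. With H2-Aa and H2-Ab1, H2-Eb1 had 0.71 and 0.66 in the diet libraries and 0.91 for both in the knockdown libraries. H2-DMb1 had 0.86 and 0.80 with H2-Aa and H2-Ab1 in the diet libraries, and 0.26 and 0.41 in the knockdown libraries. H2-Oa followed Cd74 least, with 0.13 and −0.37. Ciita had an r of 0.56 with the mean of Cd74, H2-Aa, H2-Ab1 and H2-Eb1 in the diet libraries and of 0.36 after group means were removed, and of 0.62 and −0.13 in the knockdown libraries. These correlations describe libraries that share groups, depth and preparation.

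The 5 other genes with the pattern most like the mean of Cd74, H2-Aa, H2-Ab1 and H2-Eb1 over the 22 diet libraries, of 17041 genes compared, were Gm4951 (r = 0.81), Iigp1 (0.80), Ogfod3 (0.79), Igtp (0.75) and Ubb (0.74). Iigp1 and Igtp belong to the interferon-inducible GTPases. All 5 genes were picked by their pattern over these same libraries, so their changes between diet groups follow in part from that choice. The log2 fold changes in YCR versus YAL were −0.80 for Gm4951, −0.58 for Iigp1 and −0.72 for Igtp, none a DEG. Gm4951 and Iigp1 were DEGs in OCRRF versus OCR, both higher by 0.49 on the log2 scale, and Ubb was a DEG in OCR versus OAL (−0.31). In the Kdr knockdown the values were −0.24 for Gm4951, −0.61 for Iigp1 and −0.33 for Igtp, and 0.24 for both Ogfod3 and Ubb, so not all of these genes had the sign of the class II genes there, and none was a DEG.

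The other class II genes in the tables were lower in level. H2-Ob, which encodes the partner chain of H2-Oa, had group means of 8.55 CPM in YAL, 18.8 in YCR, 11.6 in OAL and 14.8 in OCR. Its log2 fold change was 1.16 (SE 0.298, edgeR adjusted p = 0.171) in YCR versus YAL, 0.37 (SE 0.155) in OCR versus OAL, 0.51 (SE 0.158) in the Kdr knockdown and 0.91 (SE 0.252) in the double knockdown. H2-Ob thus had positive values in contrasts where Cd74 had negative ones, and in none was it a DEG. H2-DMb2, which is nearly identical to H2-DMb1, had group means from 4.41 to 8.36 CPM, so reads shared between the 2 could be split by the counting. C57BL/6 mice lack a working I-E alpha gene, and H2-Ea-ps had group means from 0 to 0.833 CPM. None of the other class II genes was a DEG in any contrast.

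Of the pathway around Ciita, 5 genes were DEGs with CR in old mice, where 5.57% of all genes were, and none was a DEG in the YCR, YCRRF or knockdown contrasts. Among 7 factors that bind class II promoters, Creb1 (0.32) and Nfyb (0.32) rose in OCR versus OAL on the log2 scale and none fell. Of the 8 genes of peptide processing, 3 cathepsins fell, Ctsb, Ctsd and Ctsl, each by 0.29 on the log2 scale. None of the 11 tested inputs to Ciita, such as Irf1 (−0.17, SE 0.083) and Spi1 (0.13, SE 0.084), and none of the 8 costimulation genes was a DEG in this contrast. After refeeding, Nfyb fell by 0.56 on the log2 scale against OCR, and Ctsd was lower than in OAL (−0.34). In OAL versus YAL, where 14.8% of all genes were DEGs, 4 of 11 inputs (Irf8 −1.14, Spi1 −0.61, Ifngr2 −0.66 and Irf1 −0.37), 3 of 8 processing genes (Ctss −1.84, Ctsh −0.88 and Ctsz −0.44), Cd86 (−2.57), Cd83 (−2.94) and Rfxank (−0.40) fell, and Nfya (0.68) rose.

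PU.1 peaks lay near 7 of the 8 genes in at least 1 library. The authors called peaks on each library, 3046 and 2900 in OAL, 5464 and 3852 in OCR, and 2817 and 2262 in OCRRF. Within 50 kb of the start, 7 and 6 members had a peak in OAL, 7 and 6 in OCR and 6 and 6 in OCRRF, where 15.0% to 31.5% of 25127 genes did. Cd74 lies on chromosome 18. Because the 6 members on chromosome 17 lie close to each other, 1 peak can count for several of them. Ciita had none within 50 kb in any library.

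The peaks formed 11 regions, of which 3 were found in all 6 libraries. One lay in the Cd74 gene, in an intron, 3.6 kb after the start, with a fold enrichment of 11.4 and 13.9 in OAL, 15.2 and 13.5 in OCR, and 13.8 and 10.7 in OCRRF. Another (chr17:34293498-34293961) lay 5.9 kb before the start of H2-Aa, in an intron of Gm20513, with 14.0 and 8.73 in OAL, 14.7 and 12.9 in OCR, and 10.1 and 7.72 in OCRRF. The third (chr17:34101756-34102136) lay 9.6 kb after the start of H2-Oa, with 5.94 and 8.30, 9.38 and 8.55, and 7.69 and 6.64. The groups overlapped at Cd74. Upstream of H2-Aa both OCR libraries lay above both OCRRF libraries, and at the third region they also lay above both OAL libraries. With 2 libraries a group, no difference was tested.

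A region at the start of H2-Oa (chr17:34092548-34092911), in its intron, had 7.88 and 9.05 in OAL, 12.8 and 11.8 in OCR, 6.67 in the first OCRRF library and no peak in the second. Both OCR libraries were thus the highest there. They were also the ones with the most peaks, and the part of peak number in this was not tested. A region 5.5 kb before the RefSeq start of H2-Ab1 (chr17:34257526-34257901), over the start of the longer GENCODE gene at 34257689, was found in both OCR libraries (7.60 and 7.67), in 1 OAL library (7.24) and in 1 OCRRF library (6.00). The region 35.2 kb after the start of H2-Eb1 lay in H2-Eb2 and had 10.95 and 9.73 in OCR, 7.67 in 1 OAL library and 6.49 in 1 OCRRF library. Of the 11 regions, 6 were in both OCR libraries, 4 in both OAL libraries, 3 in both OCRRF libraries, and 4 in a single library.

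The windows of 2 regions are shown, 201 bases at the summit on the plus strand (mm10), as the nearest to a listed start site and as the one called in every library upstream of H2-Aa. Capitals mark CTTCCTC, the reverse complement of GAGGAAG, a core of the known PU.1 motif. These letters were searched on both strands.
H2-Oa start region (chr17:34092626-34092826): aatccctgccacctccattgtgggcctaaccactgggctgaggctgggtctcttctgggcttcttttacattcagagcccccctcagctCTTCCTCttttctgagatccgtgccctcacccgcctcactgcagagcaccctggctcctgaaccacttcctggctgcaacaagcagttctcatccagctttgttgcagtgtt
H2-Aa upstream region (chr17:34293642-34293842): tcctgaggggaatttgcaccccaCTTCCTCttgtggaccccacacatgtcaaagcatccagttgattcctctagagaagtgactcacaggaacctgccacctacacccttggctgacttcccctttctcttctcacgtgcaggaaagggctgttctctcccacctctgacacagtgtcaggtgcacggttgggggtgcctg
The letters stood 8 bases from the summit in the first and 74 bases from it in the second. They were in 46.1% to 49.8% of the 201-base windows of all PU.1 peaks of a library, against 8.39% of 201-base promoter windows. Of the 11 regions near the listed genes, 3 held them, these 2 and the region in H2-Eb2, while the region in the Cd74 intron and the one 9.6 kb after the start of H2-Oa, both called in all 6 libraries, held none.

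**Figure D4:**
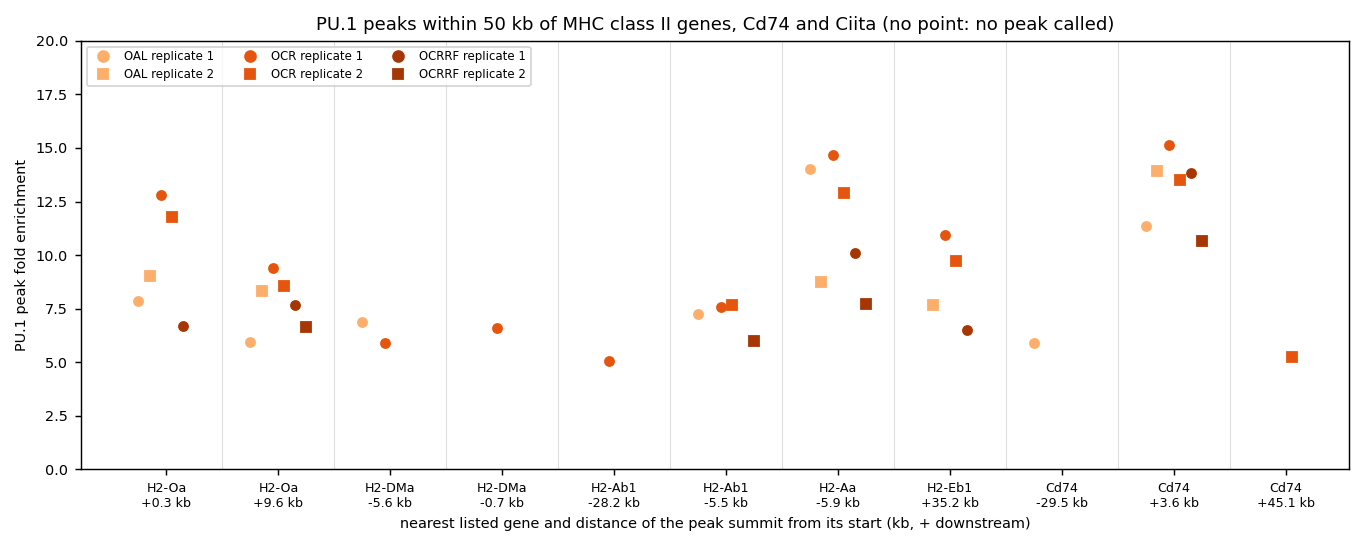
Fold enrichment of PU.1 peaks (y axis) in the 11 regions within 50 kb of the listed genes (x axis, nearest gene and distance of the summit from its start), with 1 point per library and no point where no peak was called. Points of all 6 libraries stand 9.6 kb after the start of H2-Oa, 5.9 kb before that of H2-Aa and 3.6 kb after that of Cd74.

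In HSCs of OCR mice the class II promoters carried H3K4me3, a mark of active starts, at levels from below to above the median of all 31552 promoters, which was 10.2 and 9.64 in the 2 libraries. The signal was 29.4 and 24.1 at H2-Ab1, 26.1 and 22.1 at the first start of H2-DMa (0.822 and 0.604 at its second), 16.0 and 14.2 at H2-DMb1, and 9.96 and 7.70 at H2-Aa. It was 6.17 and 4.63 at Cd74, the most abundant of the 8 RNAs, which lay below the median. Ciita has 3 starts in the deposited annotation, and they differed. The third had 14.4 and 11.6, while the first had 0.445 and 0.182 and the second 0.537 and 1.19. H3K27me3, a mark of silenced promoters, had medians of 0.312 and 0.316 over all promoters, and lay above them at all 3 starts of Ciita, from 0.460 to 0.841, and below them at Cd74 and every class II promoter, from 0.0673 to 0.256.

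Accessibility was compared between OCR and OCRRF, since OAL libraries were not analysed here. Of 91 ATAC peaks within 50 kb of any RefSeq start of the 8 genes, 90 passed the filter on low counts. Of these, 0 met the thresholds for a differentially accessible region (edgeR adjusted p below 0.05, fold change above 1.5, log2 CPM above 1.5), against 0.221% of 123372 peaks. Of these 90, 43 had a positive log2 fold change, and the median was −0.02. The peak at the Cd74 start was at 9.67, 11.8, 9.38 and 10.4 CPM in OCR and 11.7 and 15.9 CPM in OCRRF, with overlap, a log2 fold change for OCR versus OCRRF of −0.42 (SE 0.145, edgeR adjusted p = 0.196). Cd74 RNA was also lower in OCR than in OCRRF. The peak at the third Ciita start, with 19.1, 22.4, 18.6 and 17.3 CPM in OCR and 20.1 and 24.6 CPM in OCRRF, had −0.20 (SE 0.113, edgeR adjusted p = 0.492).

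The ATAC peak over the PU.1 region upstream of H2-Aa was at 5.49, 5.34, 5.57 and 4.21 CPM in OCR and 3.61 and 4.05 CPM in OCRRF, higher in OCR without overlap (0.43, SE 0.216, edgeR adjusted p = 0.435), where 9.99% of all peaks were higher without overlap. The start of H2-DMa was at 20.5, 20.0, 21.9 and 21.7 CPM in OCR and 18.6 and 19.5 CPM in OCRRF (0.14), also without overlap. The lowest edgeR adjusted p among the 90 was 0.0539, for a peak 43906 bp from the start of H2-Ab1 with a log2 fold change of −0.62 (SE 0.158), at 7.10, 9.46, 12.6 and 8.03 CPM in OCR and 14.6 and 14.0 CPM in OCRRF, lower in OCR without overlap as were 10.4% of all peaks. Without the third OCR library 1 peak passed the thresholds. At the starts of H2-Aa, H2-Ab1, H2-Eb1, H2-DMb1 and H2-Oa the groups overlapped.

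**Figure D5:**
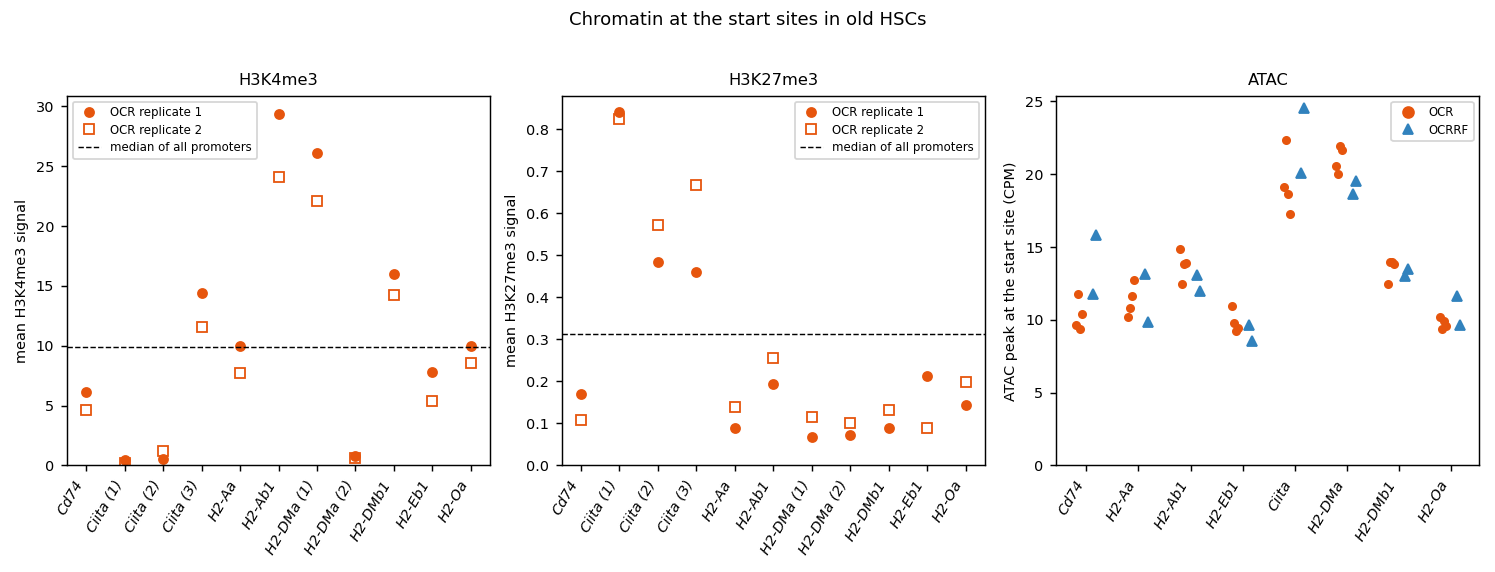
Mean H3K4me3 and H3K27me3 signal (y axes) at each start site in 2 OCR libraries, with the median of all promoters as a dashed line, and CPM of the ATAC peak at the start in 4 OCR and 2 OCRRF libraries. Ciita (3) is the start with H3K4me3 of 14.4 and 11.6, and the numbers in brackets order the starts of a gene along the chromosome.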

How the data were processed

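For RNA-seq, the authors deposited raw counts per gene, made with featureCounts after trimming (trim galore, cutadapt) and alignment to mm10 (STAR). How the counting handled strand and multi-mapping reads is not given in the sources used here. Values of overlapping genes (Gm20513 and its neighbours) and near-identical genes (H2-DMb1 and H2-DMb2, H2-Eb1 and H2-Eb2) are therefore uncertain. ATAC-seq data were counts in 131918 consensus peaks, as the authors deposited them. For the histone marks they deposited a mean signal per promoter, over 750 bp for H3K4me3 and 2000 bp for H3K27me3. PU.1 peaks were called by the authors in each library with MACS2 and deposited with a score, the ratio of enrichment over background, and p-values and q-values as −log10. These signal and peak values carry no counts per region, so no counting error is given for them. The labels and the paper name different library kits for RNA-seq, and the antibody of the second PU.1 replicate was read from its file name. The paper lists PU.1 antibodies from different suppliers. The PU.1 replicates may therefore differ in antibody, and the part of this in their peaks was not tested.

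The analysis used edgeR 4.0.16 in R 4.3.3 (filterByExpr, TMM, glmQLFit, glmQLFTest) and fitted only the groups of a comparison. CPM were scaled by TMM within the diet or the knockdown experiment, so levels are not on 1 scale across both. An SE is the size of the log2 fold change over the square root of F. RPKM used union exon lengths of GENCODE. Diet libraries held 11102898 to 36579392 counts, knockdown libraries 35657999 to 44780217 and ATAC libraries 15721335 to 19558148. Counting error is larger in the shallower ones. On simulated counts, the test recovered 97% of 100 genes changed by 1 on the log2 scale in the Kdr knockdown design, 100% in OCR versus OAL and 78% in YCR versus YAL. Unchanged genes called there numbered 14, 14 and 8. The changed genes were drawn from well expressed ones, and the counts had the spread that edgeR had fitted. Recovery in the real libraries can therefore be lower. Kdr itself, with a log2 fold change of −1.35 in the Kdr knockdown, was not a DEG. Peaks were related to RefSeq starts within 50 kb, with an overlap of 1 bp. Columns of no mapped sample numbered 0.

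The 8 genes and all gene lists were chosen with earlier results of these data known. Named genes were the 8, Kdr and Bmpr1a, the list members that were DEGs, and the 5 genes most correlated with the mean of Cd74, H2-Aa, H2-Ab1 and H2-Eb1 (genes with a mean below 1 CPM left out). Irf1 and Spi1 in contrasts where they were not DEGs, H2-Ob and the marker genes were named after their values were seen. Alternatives were DESeq2 1.42.0, its size factors, 1 fit of all groups, no filter, a minimum of 10 counts per library, a replicate block, and each library left out. The replicate numbers did not pair the libraries.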

Additional observations from a re-analysis of the deposited data

Results flagged for a closer look

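In groups of 4 libraries, 4 of the 60 groups examined held a library far from the others by Dixon's criterion, where chance gives about 1 in 20. Ciita was at 9.19 CPM in the third YCRRF library and at 21.3 to 23.6 CPM in the other 3. H2-DMa was at 148.1 CPM in the first YCR library and at 139.7 to 140.3 CPM in the other 3. In ATAC-seq, the first OCR library stood apart at a peak 665 bp from the start of H2-Eb1 (5.54 CPM, others 6.19 to 6.31) and at the start of H2-DMb1 (12.5 CPM, others 13.8 to 14.0).

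H2-DMa had a log2 fold change of −0.22 in the Kdr knockdown and of 0.28 in the double knockdown. The difference was 0.50 (SE 0.159) and did not pass the edgeR test across all genes.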

How the results depend on the processing

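No called value turned its direction under the alternatives run. The counts of members called that differed from those given above were as follows. For OCR versus OAL (0), no filter gave 3 (Cd74, H2-Aa and Ciita) and leaving out a library 0 to 2. For YCR versus YAL (0), DESeq2 and no filter each gave 2 and at least 10 counts gave 1. For OCRRF versus OAL (0), DESeq2 gave 1. For OCRRF versus OCR (1), DESeq2, its size factors, the replicate block and 1 fit of all groups each gave 0, and leaving out a library 0 to 1. For YCRRF versus YCR (0), DESeq2, no filter and 1 fit each gave 1. For OAL versus YAL (0), DESeq2, no filter, the replicate block and 1 fit each gave 1, and leaving out a library 0 to 1. For the Kdr knockdown (2), DESeq2 gave 5, no filter 4, the replicate block 3, 1 fit of all groups 0, leaving out a library 0 to 2, and both other sets of scramble libraries, added after the data were seen, 0. For the difference between knockdowns (0), no filter gave 1 (Cd74). For ATAC peaks (0), at least 10 counts and the replicate block each gave 1, and leaving out a library 0 to 1. Within 10 kb there were 7 PU.1 regions in place of 11. The causes were not tested. Of the values of single genes under an alternative, 1022 were scored as unchanged, 26 as moved and 8 as newly past the threshold. The side of the threshold was scored only for Cd74 in OAL versus YAL and H2-DMb1 in OCRRF versus OAL and the double knockdown. Other values were scored by whether they stayed within their spread, so calls gained or lost among them are not counted there. In the Kdr knockdown, Cd74 kept its call in 8 of 13 alternatives and H2-Aa in 7 of 13. In OCRRF versus OCR, Cd74 kept it in 5 of 13.

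Counts of DEGs over all genes moved more. They ran over the alternatives, libraries left out included, from 212 to 1804 for OCR versus OAL (1511), 6 to 511 for YCR versus YAL (48), 0 to 4503 for OCRRF versus OAL (1316), 64 to 3437 for OCRRF versus OCR (1110), 0 to 52 for YCRRF versus YAL (0), 0 to 538 for YCRRF versus YCR (2), 1475 to 7895 for OAL versus YAL (3486), 0 to 261 for the Kdr knockdown (3), 0 to 332 for the double knockdown (1) and 98 to 764 for ATAC peaks (273). Libraries of the same replicate number deviated together by a correlation of −0.142 to 0.146, so the numbers were not taken as pairs.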
